A study of Drosophila melanogaster with 15 samples.

Results

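A set of 9 blood cell genes of Drosophila was followed through RNA interference (RNAi) against the chromatin proteins CLAMP and MSL2 in SL2 cells. They were chosen by gene identifier and are Hml (CG7002), He (CG31770), NimC1 (CG8942), eater (CG6124), drpr (CG2086), crq (CG4280), Sr-CI (CG4099), srp (CG3992) and ush (CG2762). These 9 genes are listed as 13 transcripts, out of 15139 genes and 22353 transcripts in each library. SL2 is a male cell line of embryonic origin that resembles a blood cell. The zinc finger protein CLAMP binds DNA, and the MSL complex, of which MSL2 is a part, acts on the X chromosome of males. The groups used here were SL2 cells after 6 days of CLAMP RNAi, of MSL2 RNAi or of control RNAi, all at 25 °C, with 1 messenger RNA library each. The labels name no target for the control RNAi. The study asked how CLAMP acts on X-linked genes, and all 9 genes lie on autosomes, 5 on arm 2L, 2 on 3L and 2 on 3R.

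Hemocytes are the circulating blood cells of the fly, and most of them are plasmatocytes, which engulf microbes and dying cells. They recognise these through surface receptors, among them the Nimrod family with its EGF-like repeats (NimC1, eater, drpr), the CD36 family (crq) and class C scavenger receptors (Sr-CI). The GATA factor Serpent, encoded by srp, is needed for blood cells to form, and U-shaped, encoded by ush, is the cofactor that binds it. No sequence of these genes was used here.

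The libraries had totals of 68301197 for CLAMP RNAi, 67844405 for MSL2 RNAi and 68036170 for control RNAi, by which the deposited RPKM values (reads per kilobase of transcript, relative to the library total) were scaled. Each RNAi target was low in its own library. Clamp had an RPKM of 19.8 after CLAMP RNAi and 66.2 in control, and msl-2 had 5.16 after MSL2 RNAi and 19.8 in control. Since each group has 1 library, no replicate check and no p-value could be given, and "higher" and "lower" describe these libraries alone. Intervals on read ratios are exact 95% Clopper-Pearson intervals and cover counting error only. Both comparisons with control use the same control library, so a deviation of that library would move both.

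All 9 genes were expressed in every library and passed the filter on level, since their mean RPKM was at least 1, as it was for 7485 genes. Their RPKM ran from 5.04 for NimC1 to 151 for Sr-CI after CLAMP RNAi and from 4.14 to 140 after MSL2 RNAi, against 4.27 to 168 for the same genes in control. Above the median level of the tested genes stood 8 of the 9 in each knockdown library and 7 in control, where that median was an RPKM of 21.6. The summed RPKM of the 9 genes stood at 573 after CLAMP RNAi and 510 after MSL2 RNAi, against 567 in control. From high to low the order after CLAMP RNAi was Sr-CI, crq, srp, drpr, ush, eater, Hml, He and NimC1. After MSL2 RNAi srp stood above crq and ush above drpr. In control crq was above srp and ush above drpr, and He was above Hml, unlike in either knockdown library. The closest neighbours in order were srp and crq after MSL2 RNAi, at an RPKM ratio of 1.03 (counting interval 1.01 to 1.05), and crq and srp after CLAMP RNAi, at 1.04 (1.02 to 1.06). Every ratio between neighbours excluded 1 by counting error, but the spread between cultures is unknown, so the order of such close pairs is not settled here.

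**Figure D1:**
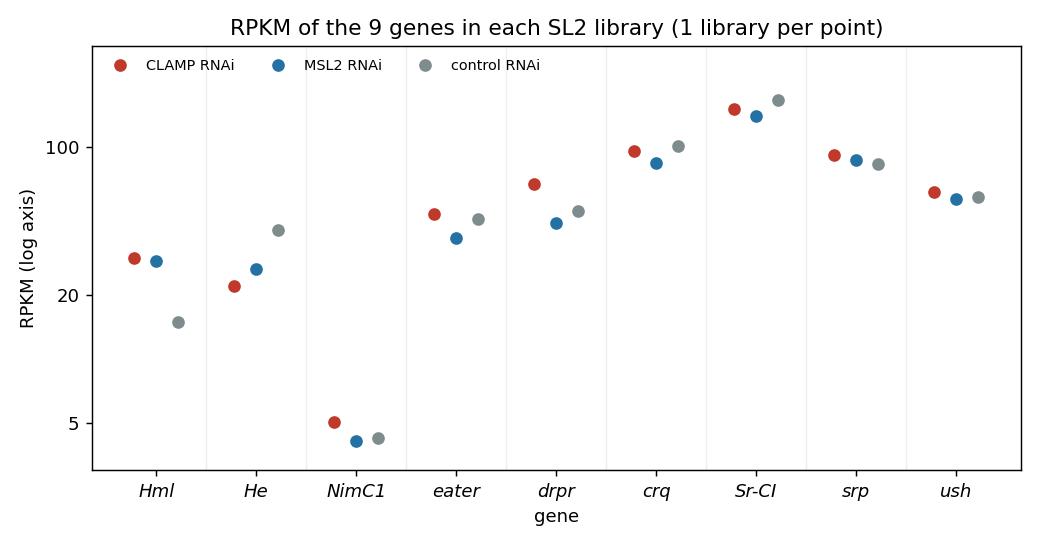
RPKM of each gene on a log axis, with 1 point per library in the order CLAMP RNAi, MSL2 RNAi and control RNAi. Hml lies about 2-fold above control in both knockdown libraries, He lies below control in both, and the other 7 genes stay within 1.5-fold of control.

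The genes differed in direction. After CLAMP RNAi, 1 of the 9 was at least 1.5-fold higher than control, namely Hml, beside 1.5% of all tested genes, and 1 was at least 1.5-fold lower, namely He, beside 3.86%. After MSL2 RNAi, 1 was at least 1.5-fold higher, again Hml, beside 2.53% of tested genes, and 1 was that much lower, again He, beside 5.32%. When the MSL2 RNAi library was set over the CLAMP RNAi library, without the control, drpr was at least 1.5-fold lower, beside 3.62% of tested genes, and 0 of the 9 were that much higher, beside 4.24%. By a 2-fold rule Hml was higher after CLAMP RNAi, beside 0.588% of tested genes. It lay at that line, since its counting interval of 1.97 to 2.06 includes 2, and with a pseudocount of 1 its log2 ratio was 0.96. Past 2-fold there were 0 lower of the 9 after CLAMP RNAi, beside 1.16%, 0 higher after MSL2 RNAi, beside 0.588%, and 0 lower, beside 0.975%. In MSL2 RNAi over CLAMP RNAi it was 0 in both directions, beside 1.66% higher and 1.11% lower. The median log2 ratio of the 9 genes was 0.08 after CLAMP RNAi (−0.06 over all tested genes), −0.20 after MSL2 RNAi (−0.02) and −0.11 in MSL2 RNAi over CLAMP RNAi (0.05). Log2 ratios here are of RPKM plus 0.1, which hardly touches genes at these levels. In bulk RNA, fewer cells of a type and less RNA per cell cannot be told apart.

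**Figure D2:**
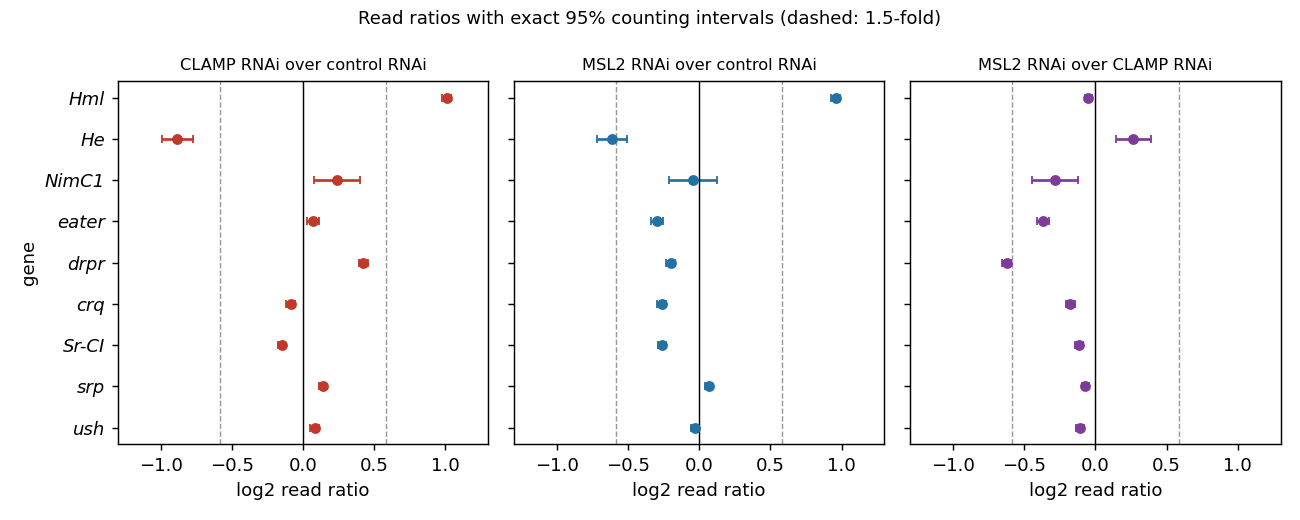
Log2 read ratio of each gene in the 3 comparisons, with exact 95% counting intervals and dashed lines at 1.5-fold. Hml and He lie beyond a dashed line in both comparisons with control, and drpr does in MSL2 RNAi over CLAMP RNAi.

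Hml encodes Hemolectin, a large secreted protein that takes part in clotting and is a common marker of plasmatocytes. Its RPKM stood at 30.0 after CLAMP RNAi and 29.0 after MSL2 RNAi, against 14.9 in control. The reads behind these numbered 24140 after CLAMP RNAi and 23163 after MSL2 RNAi, against 11944 in control, on a transcript of 11768 bases. The knockdown libraries were close to each other and the control was low. Relative to control, CLAMP RNAi gave a read ratio of 2.01 (counting interval 1.97 to 2.06) and MSL2 RNAi gave 1.94 (1.90 to 1.99). Of the 7485 tested genes, 44 had a log2 ratio at least as high as that of Hml, itself included, after CLAMP RNAi, and 50 did after MSL2 RNAi. Between the knockdown libraries the read ratio was 0.966 (0.949 to 0.984), MSL2 RNAi over CLAMP RNAi. Hml had 64.3% of the tested genes below it in level after CLAMP RNAi and 63.1% after MSL2 RNAi, against 36.7% in control. The 56 tested transcripts of 0.8 to 1.25 times its length had median log2 ratios of −0.19 after CLAMP RNAi and −0.37 after MSL2 RNAi.

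He encodes Hemese, a glycosylated transmembrane protein found on the surface of hemocytes. Its RPKM stood at 22.1 after CLAMP RNAi and 26.6 after MSL2 RNAi, against 40.6 in control. These rest on 1017 reads after CLAMP RNAi and 1216 after MSL2 RNAi, against 1866 in control, on a short transcript of 675 bases. The control library was the high one, opposite to Hml. Relative to control, CLAMP RNAi gave a read ratio of 0.543 (0.502 to 0.586) and MSL2 RNAi gave 0.654 (0.607 to 0.703). The ratio of MSL2 RNAi over CLAMP RNAi was 1.20 (1.11 to 1.31). The counting interval after MSL2 RNAi spans the 1.5-fold line, with log2 bounds of −0.72 and −0.51. Of the tested genes, 114 were at least as low after CLAMP RNAi and 345 after MSL2 RNAi, He included. The 673 tested transcripts of like length had medians of −0.05 after CLAMP RNAi and 0.00 after MSL2 RNAi. In an annotation table of the Release 6 assembly, which is not the build of the files, He overlaps NimB5, so reads of the pair may not be told apart. NimB5, a secreted Nimrod protein gene, was also below control, with RPKM of 13.4 after CLAMP RNAi and 12.7 after MSL2 RNAi, against 17.9 in control.

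**Figure D3:**
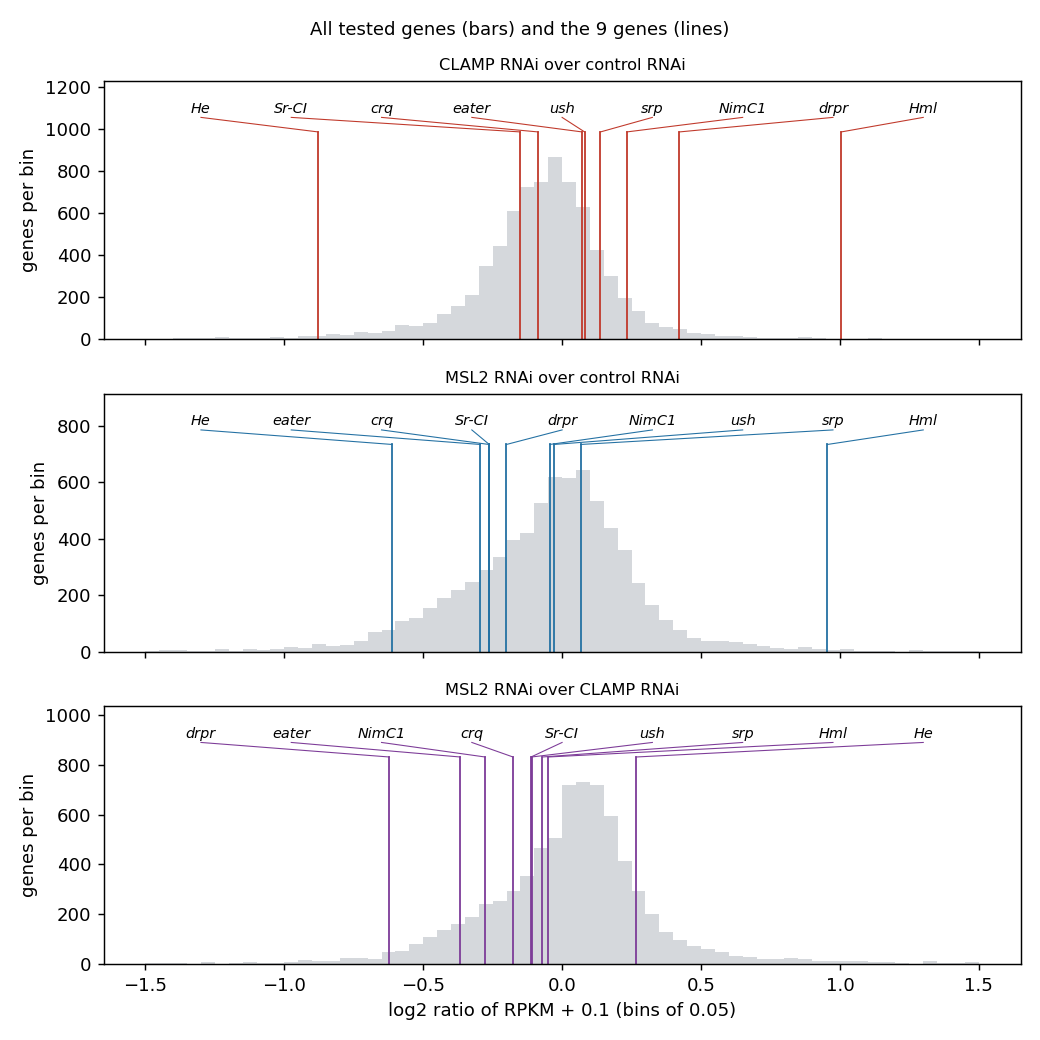
Number of tested genes per 0.05 bin of log2 ratio (grey bars) in each comparison, with the 9 genes as lines and genes beyond 1.5 on either side not drawn. Hml lies in the upper tail and He in the lower tail of both comparisons with control, while most of the other lines fall inside the bulk.

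The 3 Nimrod receptors stayed within 1.5-fold of control, with drpr the farthest from it. NimC1, a phagocytosis receptor of plasmatocytes, was the lowest of the 9 in level, with RPKM of 5.04 after CLAMP RNAi and 4.14 after MSL2 RNAi, against 4.27 in control. With 702 reads after CLAMP RNAi and 573 after MSL2 RNAi, against 593 in control, its read ratio was the least precise of these receptors. For CLAMP RNAi over control it was 1.18 (1.06 to 1.32). For MSL2 RNAi over control it was 0.969 (0.862 to 1.09), an interval that holds 1, and it was 0.822 in MSL2 RNAi over CLAMP RNAi (0.735 to 0.919). NimC1 and He are next to each other in the Release 6 gene order, and after CLAMP RNAi the log2 ratio was 0.23 for NimC1 and −0.88 for He.

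The receptor gene eater, which serves in the uptake of bacteria and in the attachment of plasmatocytes, had RPKM of 48.2 after CLAMP RNAi and 37.4 after MSL2 RNAi, against 45.9 in control. The MSL2 RNAi library was the low one. The read ratio to control was 1.05 (1.02 to 1.08) after CLAMP RNAi and 0.815 (0.790 to 0.840) after MSL2 RNAi. In MSL2 RNAi over CLAMP RNAi it was 0.775 (0.752 to 0.799), which is within 1.5-fold.

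Draper, the product of drpr and the relative of the engulfment receptor CED-1 of Caenorhabditis elegans, takes up dying cells and neuronal debris. Its main transcript had RPKM of 67.4 after CLAMP RNAi and 43.7 after MSL2 RNAi, against 50.3 in control. It had 20191 reads after CLAMP RNAi and 13020 after MSL2 RNAi, against 15005 in control. The control thus lay between the knockdown libraries. Relative to control, the CLAMP RNAi library stood at 1.34 (1.31 to 1.37) and the MSL2 RNAi library at 0.870 (0.850 to 0.891). In MSL2 RNAi over CLAMP RNAi it was 0.649 (0.635 to 0.664), past the 1.5-fold line over its whole interval. Among the tested genes, 205 were at least as high after CLAMP RNAi, and 236 were at least as low in MSL2 RNAi over CLAMP RNAi, drpr included. CG18171, CG12035 and Oseg4, which overlap drpr in the Release 6 table, had at most 479 reads in any library. Of the 748 tested genes in the same decile of level, 98.5% had a lower log2 ratio than drpr after CLAMP RNAi.

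Among the 9 genes, the scavenger receptors were the highest surface genes, and both were somewhat below control in each knockdown library. Sr-CI, which binds bacteria, had RPKM of 151 after CLAMP RNAi and 140 after MSL2 RNAi, against 168 in control. Its read ratios were 0.901 (0.884 to 0.918) for CLAMP RNAi over control and 0.834 (0.818 to 0.850) for MSL2 RNAi over control. The gene crq encodes Croquemort, a receptor for dying cells, and had RPKM of 95.7 after CLAMP RNAi and 84.6 after MSL2 RNAi, against 102 in control. Its read ratios were 0.942 (0.923 to 0.961) for CLAMP RNAi and 0.833 (0.816 to 0.851) for MSL2 RNAi over control. With eater, the MSL2 RNAi ratios of these 3 receptors thus ran from 0.815 to 0.834, while their CLAMP RNAi ratios ran from 0.901 to 1.05. The receptor genes drpr and NimC1 lay above both ranges. For MSL2 RNAi they stood at 0.870 for drpr and 0.969 for NimC1, and for CLAMP RNAi at 1.34 and 1.18. The other 3 class C scavenger receptor genes in the files did not pass the level filter, and Sr-CI was the member of its class above it. In the Release 6 table crq overlaps ex, which had RPKM of 39.6 after CLAMP RNAi and 39.7 after MSL2 RNAi, against 45.5 in control.

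By their main transcripts, the regulators stayed within 0.14 of control on the log2 scale in both knockdown libraries. For srp, RPKM stood at 91.7 after CLAMP RNAi and 87.2 after MSL2 RNAi, against 83.3 in control, with read ratios of 1.10 (1.08 to 1.12) for CLAMP RNAi and 1.05 (1.03 to 1.07) for MSL2 RNAi over control. For ush, RPKM stood at 61.6 after CLAMP RNAi and 57.1 after MSL2 RNAi, against 58.2 in control, with read ratios of 1.06 (1.04 to 1.08) for CLAMP RNAi and 0.980 (0.960 to 1.00) for MSL2 RNAi over control. The last interval includes 1. Thus srp was slightly above control in both knockdown libraries, by far less than Hml, which stood at log2 ratios of 1.00 after CLAMP RNAi and 0.95 after MSL2 RNAi. Without replicates, differences of this size cannot be set against the spread between cultures. In the Release 6 table ush overlaps cbt, a transcription factor gene at RPKM of 100 after CLAMP RNAi, 82.7 after MSL2 RNAi and 99.9 in control.

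Of the 9 genes, 3 were listed with several transcripts, and isoforms of a gene share reads. For drpr, RB had a higher RPKM than RA in each library, at a ratio of RB over RA of 1.12 after CLAMP RNAi and 1.13 after MSL2 RNAi, against 1.10 in control. Both isoforms had the same order of libraries, with log2 ratios for RA of 0.41 after CLAMP RNAi and −0.24 after MSL2 RNAi. For crq, the ratio of RB over RA was 1.05 in both knockdown libraries and 1.04 in control. For srp, the ratio of RB over RA was 0.998 to 1.00 in all 3 libraries, while the shorter RD was lower, at 0.846 of the RA level after CLAMP RNAi and 0.877 after MSL2 RNAi, against 0.827 in control. The log2 ratio of RD stood at 0.17 with CLAMP RNAi and 0.15 with MSL2 RNAi, and that of RA at 0.14 after CLAMP RNAi and 0.07 after MSL2 RNAi. Isoforms of the same gene had log2 ratios of the same sign against control, and none of them passed 1.5-fold against control.

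**Figure D4:**
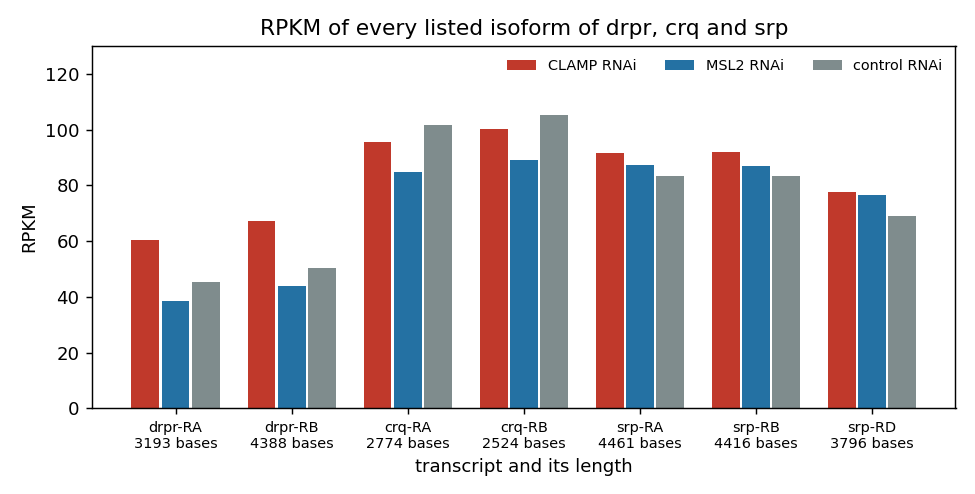
RPKM of the 7 listed transcripts of drpr, crq and srp, with bars for CLAMP RNAi, MSL2 RNAi and control RNAi from left to right. Within each gene the isoforms show the same order of libraries, and srp RD is below srp RA and RB in all 3.

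The genes whose pair of log2 ratios to control lay nearest to each of these genes were sought among 6436 others with a mean RPKM of at least 5. For Hml no other gene was within a distance of 0.2. In each pair of values given here, the log2 ratio after CLAMP RNAi comes before that after MSL2 RNAi. The nearest were CG14961 (0.63 and 0.88) at 0.386 and Drs, the drosomycin gene for an antifungal peptide (0.90 and 0.57), at 0.395. For He there were 11 within 0.2, with CG17760 (−0.81 and −0.65) and CG14273 (−0.87 and −0.50) nearest. For drpr there were 66, with CG5254 (0.42 and −0.23) and Chsy (0.39 and −0.19) nearest, both X-linked. The other patterns were common, from 743 genes near eater to 2060 near ush. The nearest genes were ND-20 and ND-B16.6 for eater, Mcm3 and loj for crq, Mipp2 and CG12182 for Sr-CI, CG13601 and EMC7 for srp, and whd and CG13117 for ush. Of these, ND-20, ND-B16.6, Mcm3 and Mipp2 are X-linked too. A pattern here is 2 ratios that share a control library.

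Further genes of blood cell biology were taken from 6 lists. Among 13 plasmatocyte marker genes, 2 were at least 1.5-fold higher and 0 lower after CLAMP RNAi, with a list median log2 ratio of 0.31. After MSL2 RNAi 2 were higher and 0 lower, with a median of 0.09. Over all tested genes the medians were −0.06 for CLAMP RNAi and −0.02 for MSL2 RNAi, and the shares past 1.5-fold are those given above. Pxn, the peroxidasin gene, was higher in both knockdown libraries, with RPKM of 860 after CLAMP RNAi and 564 after MSL2 RNAi, against 326 in control. The other gene called after CLAMP RNAi was SPARC, a collagen-binding matrix gene, with RPKM of 3241 after CLAMP RNAi and 2142 after MSL2 RNAi, against 2013 in control. The other called after MSL2 RNAi was Ppn, the papilin gene, with RPKM of 33.5 after CLAMP RNAi and 40.1 after MSL2 RNAi, against 23.0 in control. The summed RPKM of this list stood at 9880 after CLAMP RNAi and 7875 after MSL2 RNAi, against 7144 in control. Its part in the value of Hml was not tested.

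The list of other phagocytosis receptors had 15 tested genes, not all of them receptors, since it also holds the secreted NimB5. Of these, 2 were higher and 3 lower after CLAMP RNAi (median −0.17), and 0 were higher and 3 lower after MSL2 RNAi (median −0.29). NimC4, also known as simu, a receptor for dying cells upstream of Draper, had 542 reads after CLAMP RNAi and 53 after MSL2 RNAi, against 47 in control. Its read ratio after CLAMP RNAi was 11.5 (8.52 to 15.8). It passed the level filter only through that library, with RPKM of 6.20 there, 0.61 after MSL2 RNAi and 0.54 in control. The counts of higher genes that hold NimC4 carry this limit. NimB3 had 121 reads after CLAMP RNAi and 28 after MSL2 RNAi, against 33 in control. Itgbn, an integrin subunit gene, went the other way, with 359 reads after CLAMP RNAi and 2030 after MSL2 RNAi, against 2467 in control. Of the 10 genes with Nim symbols in the files, 8 passed the level filter, and among these 2 were higher and 1 lower after CLAMP RNAi, and 0 higher and 1 lower after MSL2 RNAi. NimC3 was low in both knockdown libraries, with RPKM of 4.34 after CLAMP RNAi and 4.36 after MSL2 RNAi, against 9.31 in control. NimA was at 0 reads in all 3 libraries. Leaving out NimC4, at 3.30, the log2 ratios of the tested Nim genes after CLAMP RNAi ran from −1.08 for NimC3 to 1.79 for NimB3. NimC1, at 0.23, lay between them. NimC3 and NimB5 were named after their values were seen.

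**Figure D5:**
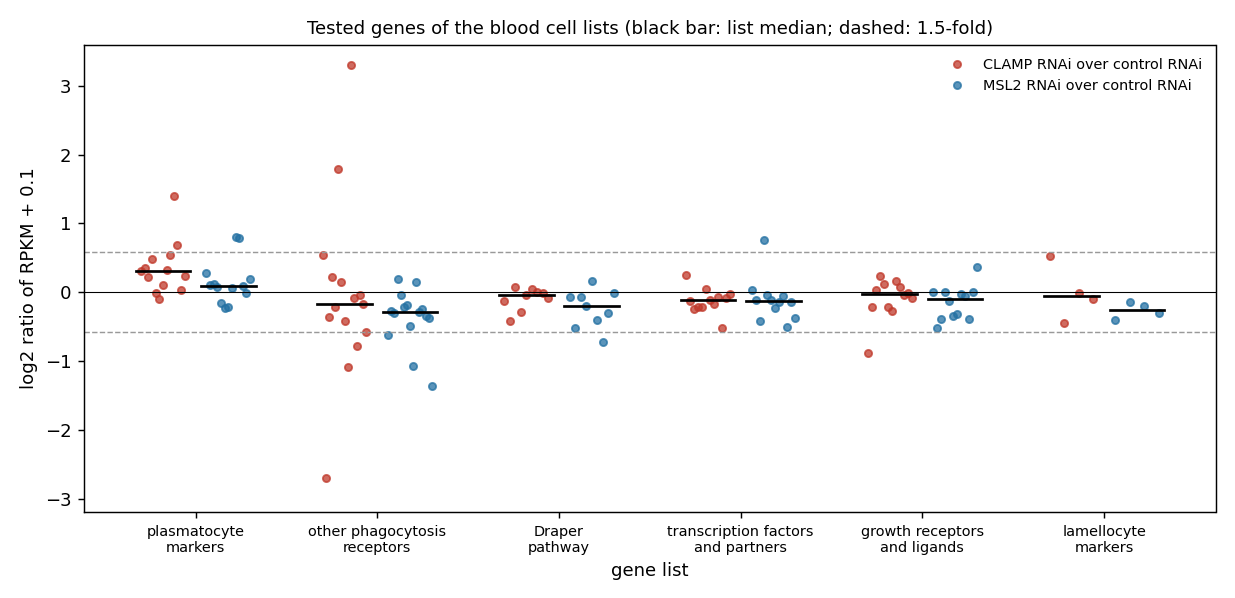
Log2 ratio of RPKM plus 0.1 for each tested gene of 6 lists, with CLAMP RNAi over control RNAi left of MSL2 RNAi over control RNAi, black bars for list medians and dashed lines at 1.5-fold. The list of other phagocytosis receptors spread most widely, with NimC4 at 3.30 and Itgbn at −2.71 after CLAMP RNAi. NimC4 passed the level filter only through the CLAMP RNAi library.

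In the engulfment pathway of Draper, 0 of 9 other tested genes passed 1.5-fold after CLAMP RNAi (median −0.05) and 1 was lower after MSL2 RNAi (median −0.21). That gene was the X-linked phosphatase gene csw, with RPKM of 8.95 after CLAMP RNAi and 5.37 after MSL2 RNAi, against 8.90 in control. The adaptor gene ced-6, whose product binds Draper, had RPKM of 218 after CLAMP RNAi and 159 after MSL2 RNAi, against 210 in control. The adaptor gene Crk, on chromosome 4, had RPKM of 14.3 after CLAMP RNAi and 13.4 after MSL2 RNAi, against 19.2 in control. After CLAMP RNAi the log2 ratio of drpr, 0.42, lay above those of all 9 genes of this list.

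Of 12 tested genes for blood cell transcription factors and partners other than srp and ush, 0 passed 1.5-fold after CLAMP RNAi (median −0.12), and 1 was higher after MSL2 RNAi (median −0.13). That was Ets21C, a stress-responsive ETS factor gene, with RPKM of 3.01 after CLAMP RNAi and 6.02 after MSL2 RNAi, against 3.53 in control. The fork head factor gene jumu had RPKM of 27.9 after CLAMP RNAi and 28.3 after MSL2 RNAi, against 40.0 in control. E(bx), a chromatin remodelling subunit gene, had RPKM of 35.3 after CLAMP RNAi and 31.4 after MSL2 RNAi, against 42.0 in control. Among 12 tested growth receptor and ligand genes, 1 was lower after CLAMP RNAi (median −0.03), namely Egfr at 212 reads after CLAMP RNAi and 414 after MSL2 RNAi, against 414 in control, and 0 passed 1.5-fold after MSL2 RNAi (median −0.10). The log2 ratio of Egfr, a gene of low level, was −0.88 after CLAMP RNAi and fell short of 1.5-fold, at −0.47, with a pseudocount of 1. The insulin receptor gene InR had RPKM of 19.4 after CLAMP RNAi and 15.8 after MSL2 RNAi, against 22.6 in control. The X-linked kinase gene hop had RPKM of 15.6 after CLAMP RNAi and 12.2 after MSL2 RNAi, against 16.1 in control.

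Markers of other blood cells and tissues were present to different degrees. Of 7 lamellocyte marker genes in the files, 4 passed the level filter (mys, cher, msn and Mmp1), all used by many cell types. The lamellocyte surface marker atilla had 0 reads after CLAMP RNAi and 6 after MSL2 RNAi, against 2 in control, so it was near 0 throughout. In that list 0 genes passed 1.5-fold against control, with medians of −0.05 after CLAMP RNAi and −0.25 after MSL2 RNAi. For cher, the filamin gene, RPKM stood at 123 after CLAMP RNAi and 152 after MSL2 RNAi, against 167 in control. The matrix protease gene Mmp1 had RPKM of 96.8 after CLAMP RNAi and 50.8 after MSL2 RNAi, against 66.9 in control. The integrin gene mys, on the X, had RPKM of 88.8 after CLAMP RNAi and 76.5 after MSL2 RNAi, against 94.8 in control.

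Of the crystal cell list, 1 of 4 genes in the files passed the filter, the malic enzyme gene Men, at log2 ratios of 0.02 after CLAMP RNAi and −0.26 after MSL2 RNAi. Among the others, the crystal cell regulator lz had 4 reads in each knockdown library and 1 in control. The prophenoloxidase gene PPO2 had 66 reads after CLAMP RNAi and 53 after MSL2 RNAi, against 133 in control, while peb, a zinc finger gene, had 72 after CLAMP RNAi and 91 after MSL2 RNAi, against 84 in control. The summed RPKM stood at 401 after CLAMP RNAi and 361 after MSL2 RNAi, against 422 in control, for the lamellocyte list. For the crystal cell list it was 153 with CLAMP RNAi and 126 with MSL2 RNAi, against 151 in control. Nearly all of the crystal cell sum was Men, with RPKM of 152 after CLAMP RNAi and 125 after MSL2 RNAi, against 150 in control.

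Of 10 fat body genes 1 passed the filter, ppl, with log2 ratios of −0.17 after CLAMP RNAi and −0.13 after MSL2 RNAi. Of 8 neuron genes 3 passed, with 0 past 1.5-fold after CLAMP RNAi. After MSL2 RNAi brp was higher at 0.64 and the X-linked elav lower at −0.60, while Syx1A stood at −0.13. Of 9 muscle genes 3 passed, with Tm1 lower after CLAMP RNAi at −0.71, sls lower after MSL2 RNAi at −1.43, and the troponin gene up at 0.05 after CLAMP RNAi and −0.12 after MSL2 RNAi. When the longest transcript stood for the gene, Tm1 turned to 0.29 after CLAMP RNAi, and sls no longer passed the level filter, so both muscle calls were lost. Of 7 germline genes in the files 4 passed and 0 were past 1.5-fold, with piwi at −0.52 after CLAMP RNAi and −0.07 after MSL2 RNAi, tud at −0.28 with CLAMP RNAi and −0.03 with MSL2 RNAi, and aub at −0.19 after CLAMP RNAi and −0.05 after MSL2 RNAi. Of 7 epithelial genes 6 passed, with sdt lower after CLAMP RNAi at −0.86, crb higher after MSL2 RNAi at 0.81 and arm at −0.16 with CLAMP RNAi and −0.49 with MSL2 RNAi. With a pseudocount of 1 the calls of brp, at 0.55, elav, at −0.53, and crb, at 0.58, fell short of 1.5-fold. The summed RPKM of the fat body list stood at 22.4 after CLAMP RNAi and 22.9 after MSL2 RNAi, against 24.9 in control. For neuron genes it stood at 93.1 after CLAMP RNAi and 79.6 after MSL2 RNAi, against 85.9 in control. For muscle genes it stood at 59.1 after CLAMP RNAi and 79.2 after MSL2 RNAi, against 93.9 in control. For germline genes it stood at 161 after CLAMP RNAi and 190 after MSL2 RNAi, against 193 in control, and for epithelial genes at 326 after CLAMP RNAi and 302 after MSL2 RNAi, against 365 in control. Of these 5 sums, all but the neuron sum were below control in both knockdown libraries. Except for the germline list, most of each sum came from 1 gene. That gene was ppl for fat body, Syx1A for neuron, Tm1 for muscle and the X-linked arm for epithelial genes. Tm1 had RPKM of 54.4 after CLAMP RNAi and 75.2 after MSL2 RNAi, against 88.8 in control, and arm had 214 and 170, against 239. A sum made mostly of 1 gene does not show whether the genes of its list fell together. All 6 tested epithelial genes were below control with CLAMP RNAi, with log2 ratios from −0.86 for sdt to −0.11 for cora. With MSL2 RNAi their signs were mixed, from −0.49 for arm to 0.81 for crb. Among the tested germline genes, aub, tud and piwi were below control in both knockdown libraries. The germline gene zpg was not, at 0.00 with CLAMP RNAi and 0.07 with MSL2 RNAi. The part of these cell types in the values of the 9 genes was not tested.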

How the data were processed

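The deposited files of 3 SL2 mRNA libraries were used, and the 12 immunoprecipitation and input samples were not analysed here. Libraries followed a standard Illumina protocol from total RNA, per the labels' protocols. The submitters' processing notes name Bowtie and dm3, and the sources used here do not give the aligner version, counting tool, annotation release or strand setting. Counts as deposited are whole numbers per transcript, with reads in shared exons entering each isoform. The RPKM values, by the authors, equal the count per transcript length and library total, as recomputed. A further deposited column holds transcript length and another the library total, which are other numbers used for that scaling.

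The transcript with the most reads on average stood for its gene. Symbols, arms and gene order came from a RefSeq table of the Release 6 assembly, so no coordinates are given. All 9 members matched by locus tag. The 7485 genes whose mean RPKM was 1 or more were described. Log2 ratios are of RPKM plus 0.1. With 1 library in each group a count model could not be fitted, no test was run, and a 1.5-fold rule was used. Read ratios have exact 95% Clopper-Pearson intervals (scipy 1.17.1), which cover counting error only. Mates and PCR copies are not independent, so they may be too narrow. The functions were tested on simulated data.

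The members and lists were chosen with earlier results of these data known. All members are named, with the RNAi targets and, per list, up to 3 tested genes of largest absolute log2 ratio to control. For each member with a mean RPKM of at least 5, the 2 genes nearest in the pair of log2 ratios to control are named. Overlapping and neighbouring genes, which were found by position, lie outside this rule and were named after their values were seen. The same holds for NimC3, NimB5, NimA, msn and the untested markers atilla, lz, PPO2 and peb, which were chosen after their values were seen. Promoter motifs, planned at first, were not analysed here. The alternatives, tried singly, were the longest transcript, a 2-fold rule, 2 scalings, pseudocounts of 0.01 or 1, and a level minimum of 5 or none.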

Additional observations from a re-analysis of the deposited data

How the results depend on the processing

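All 27 log2 ratios of the 9 genes (3 comparisons) kept their sign under the pseudocounts of 0.01 and 1, the longest transcript, scaling to an autosomal median of 0 and upper-quartile scaling. Hml ranged from 0.96 to 1.06 after CLAMP RNAi and from 0.91 to 0.97 after MSL2 RNAi, He from −0.88 to −0.82 after CLAMP RNAi and from −0.64 to −0.59 after MSL2 RNAi, and drpr from −0.70 to −0.61 in MSL2 RNAi over CLAMP RNAi. Counts of members past 1.5-fold did not change under these or under other level filters. Small ratios did shift in size, such as crq after CLAMP RNAi, from −0.09 to −0.03, and ush after MSL2 RNAi, from −0.05 to −0.01. Under a 2-fold rule, with the main pseudocount of 0.1, Hml remained after CLAMP RNAi, but at the line. The counts were 0 for lower members after CLAMP RNAi and 0 for higher and 0 for lower ones after MSL2 RNAi. In MSL2 RNAi over CLAMP RNAi the count was 0 for lower ones. The background over all tested genes depended on the settings. With a pseudocount of 1, CLAMP RNAi had 74 genes higher and 183 lower, and MSL2 RNAi had 116 higher. Without a level filter, CLAMP RNAi had 375 higher and 712 lower, MSL2 RNAi had 650 higher and 717 lower, and 900 were higher and 544 lower in MSL2 RNAi over CLAMP RNAi. At a mean RPKM of at least 5, CLAMP RNAi had 51 higher and 131 lower, MSL2 RNAi had 67 higher and 265 lower, and 133 were higher in MSL2 RNAi over CLAMP RNAi. With a 2-fold rule, CLAMP RNAi had 44 higher and 87 lower, MSL2 RNAi had 44 higher and 73 lower, and 124 were higher and 83 lower in MSL2 RNAi over CLAMP RNAi. Over the gene lists, 233 medians stayed within 0.1 of their value under an alternative and 19 did not, and 234 counts of list genes past the fold rule stayed within 1.5 times while 54 did not. Against control, 10 list genes were called for CLAMP RNAi and 11 for MSL2 RNAi, out of the tested genes given above for each list. Over all tested genes, 1.5% were higher and 3.86% lower after CLAMP RNAi, and 2.53% were higher and 5.32% lower after MSL2 RNAi. Of these calls, a pseudocount of 1 ended those of PGRP-LE and Egfr after CLAMP RNAi and of Dscam1, elav, brp and crb after MSL2 RNAi. A mean RPKM of at least 5 left out NimC4, NimB3, PGRP-LE, Egfr and sdt after CLAMP RNAi, and Ets21C, sls and crb after MSL2 RNAi. The longest transcript ended the calls of Tm1 and sls, and upper-quartile scaling that of elav. By a 2-fold rule 5 calls after CLAMP RNAi and 3 after MSL2 RNAi were left. The shares of all tested genes past 2-fold were 0.588% higher and 1.16% lower after CLAMP RNAi. After MSL2 RNAi they were 0.588% higher and 0.975% lower. No paired analysis was possible because each RNA group has 1 library and no replicate number. Depth limits NimC1 and He most, and the absence of replicates limits every ratio.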

Other observations

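The genes next to each of the 9 genes in the Release 6 gene order, other than those already given and the long noncoding RNA genes beside crq and srp, which were not used here, ranged from 0 reads to levels above those of the gene itself. Beside Hml, Tsp68C had 2 reads after CLAMP RNAi and 9 after MSL2 RNAi, against 5 in control. On the other side of Hml, CG8745 had RPKM of 10.7 after CLAMP RNAi and 6.89 after MSL2 RNAi, against 10.7 in control, so neither neighbour was high in both knockdown libraries as Hml was. Beside eater, CG14259 had 1 read after CLAMP RNAi and 1 after MSL2 RNAi, against 3 in control, while Jhbp11 had 45 after CLAMP RNAi and 35 after MSL2 RNAi, against 35 in control. Beside Sr-CI, the related Sr-CIII had 8 reads after CLAMP RNAi and 20 after MSL2 RNAi, against 20 in control, while CG2955 had 0 in all 3 libraries. Beside drpr, CG7991 was higher in both knockdown libraries at few reads, namely 61 after CLAMP RNAi and 54 after MSL2 RNAi, against 16 in control, while PIG-Wb had 0 after CLAMP RNAi and 1 after MSL2 RNAi, against 3 in control.

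He, which lies beside NimC1, was at least 1.5-fold below control in both knockdown libraries, as given above. The other neighbours of NimC1, He, crq, srp and ush that are given here stayed within 1.5-fold of control in both. Beside NimC1, the cytochrome gene Cyp28a5 had RPKM of 3.42 after CLAMP RNAi and 3.33 after MSL2 RNAi, against 2.78 in control. Beside He, NimB4 had RPKM of 6.24 after CLAMP RNAi and 4.90 after MSL2 RNAi, against 5.60 in control. Beside crq, shv had RPKM of 72.8 after CLAMP RNAi and 82.0 after MSL2 RNAi, against 69.1 in control. Beside srp, the helicase gene Hel89B had RPKM of 55.9 after CLAMP RNAi and 58.8 after MSL2 RNAi, against 54.1 in control. On one side of ush, the Mediator subunit gene MED15 had RPKM of 53.2 after CLAMP RNAi and 51.9 after MSL2 RNAi, against 47.7 in control. On the other, lwr, the gene of the SUMO-conjugating enzyme, had RPKM of 161 after CLAMP RNAi and 176 after MSL2 RNAi, against 134 in control. The neighbours were found by position alone, and they were named here after their values and those of the 9 genes were seen.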
